A study of Mus musculus with 2 samples.

Results

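The 8 genes described here are *Ngfr*, *Bdnf*, *Ntf3*, *Ntrk2*, *Ntrk3*, *Gdnf*, *Gfra1* and *Gfra2*, taken by their symbols from the 27514 genes that both deposited gene lists hold (31053 genes in the E15.5 list and 27998 in the later one). *Bdnf* and *Ntf3* encode neurotrophins, *Ntrk2* (TrkB) and *Ntrk3* (TrkC) their receptor tyrosine kinases, and *Ngfr* the p75 receptor that binds all neurotrophins and their precursors. *Gdnf* belongs to another family, whose members bind co-receptors such as *Gfra1* and *Gfra2* and signal through Ret or Ncam1. The genes were thus drawn from 2 families, and *Ntf5* and *Ret* were counted among the other genes of these pathways. In the embryo these ligands are best known for the survival and growth of neurons, and several mesenchymal tissues that nerves enter also express them.

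The study profiled single cells of the mouse coronal suture, the fibrous joint between the frontal and parietal bones, with 10x Genomics Chromium 3′ v2 reagents. All embryos were wildtype, of the strain given as C57/BL6. The E15.5 library came from 10 pooled sutures treated with Collagenase II and Dispase in 1 batch, followed by removal of dead cells. The E17.5 library joins 3 batches from 2 litters (10, 3 and 3 sutures), treated with Collagenase IV and sorted by flow cytometry to remove debris, doublets and likely dead cells. Stage, dissection, enzyme, the removal of dead cells, embryos, sequencing site, reads per cell and gene annotation all differed between the 2 stages. Their effects thus cannot be told apart.

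At E15.5 there was 1 library and no replicate. The 3 batches at E17.5 were prepared as separate libraries, and their joined counts are called the E17.5 library here. No difference was tested, and the 95% intervals in parentheses cover counting error only. The authors named 15 clusters of osteogenic and mesenchymal cells, which were used as given: ectocranial EC1 to EC4, ligament-like LIG, meningeal MG1 to MG4, osteogenic OG1 to OG4 and proliferating PO1 and PO2. The 5335 labelled cells at E15.5 held 48607817 unique molecular identifiers (UMIs; median of a cell 8510), and the 6830 at E17.5 held 92585034 (median 12301.5). Barcodes at E17.5 end in a suffix from 1 to 3, which the labels assign to no batch, with 1234, 2770 and 2826 labelled cells. Suffix 1 had 0 MG1 cells, 7 MG4 cells, 10 PO2 cells and 32 LIG cells. The libraries shared 190 barcode sequences, 42 of them among labelled cells. A level is the UMIs of a gene summed over the cells of a cluster, divided by all UMIs of these cells and given as counts per 1e6 (CPM).

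Where compared, the cluster names held in most cases against the markers that the authors use for them. The authors' specific markers of OG1, OG2 and OG3, such as *Erg*, *Lef1* and *Mmp13*, were not compared. *C1qtnf3* was highest in EC4 in both libraries (898 and 1492 CPM), *Cldn11*, *Aldh1a2*, *Tbx18* and *Gjb6* in MG4, *Crabp2* and *Fxyd5* in MG3, *Mkx*, *Tac1* and *Chodl* in LIG, and *Ifitm5* and *Dmp1* in OG4. *Nppc*, which the authors place in MG2 and MG3, was highest in MG2 at E15.5 and in MG3 at E17.5. *Gja1*, which they report in MG3 and MG4, was highest in MG4 at E15.5 and in MG3 at E17.5. An exception was *Scx*, highest in MG2 in both libraries. *Tnmd*, a marker of EC4 and LIG, was highest in MG1 at E17.5.

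A gene was counted as enriched in a cluster when its level there was at least 2-fold that of all other labelled cells in both libraries, with intervals that did not overlap. This held for 6 of the 8 genes, whereas 18.5% of the 12150 genes with at least 50 UMIs in each library met the same rule. *Ngfr* and *Ntf3* met it in EC4, *Ntrk2* in MG4, *Ntrk3* in MG3, MG4 and MG2, *Gdnf* in EC4 and LIG, and *Gfra1* in OG3 and OG1, while *Bdnf* and *Gfra2* met it in no cluster. Since the authors built the clusters from these very cells, the levels are a description and no test. At E17.5, 6 of the 8 genes were at least 2-fold lower than at E15.5 over all labelled cells and 0 were at least 2-fold higher, against 9.88% and 4.88% of the 12150 genes. The median ratio of E17.5 to E15.5 was 0.382 over the 8 genes and 1.00 over all 12150. Without normalization to depth the median of all genes was 1.49, and 3 of the 8 genes (*Ngfr*, *Ntrk2* and *Gfra1*) stayed at least 2-fold lower, against 4.3% of all genes, while 0 of the 8 and 19.8% of all genes were at least 2-fold higher.

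**Figure D1:**
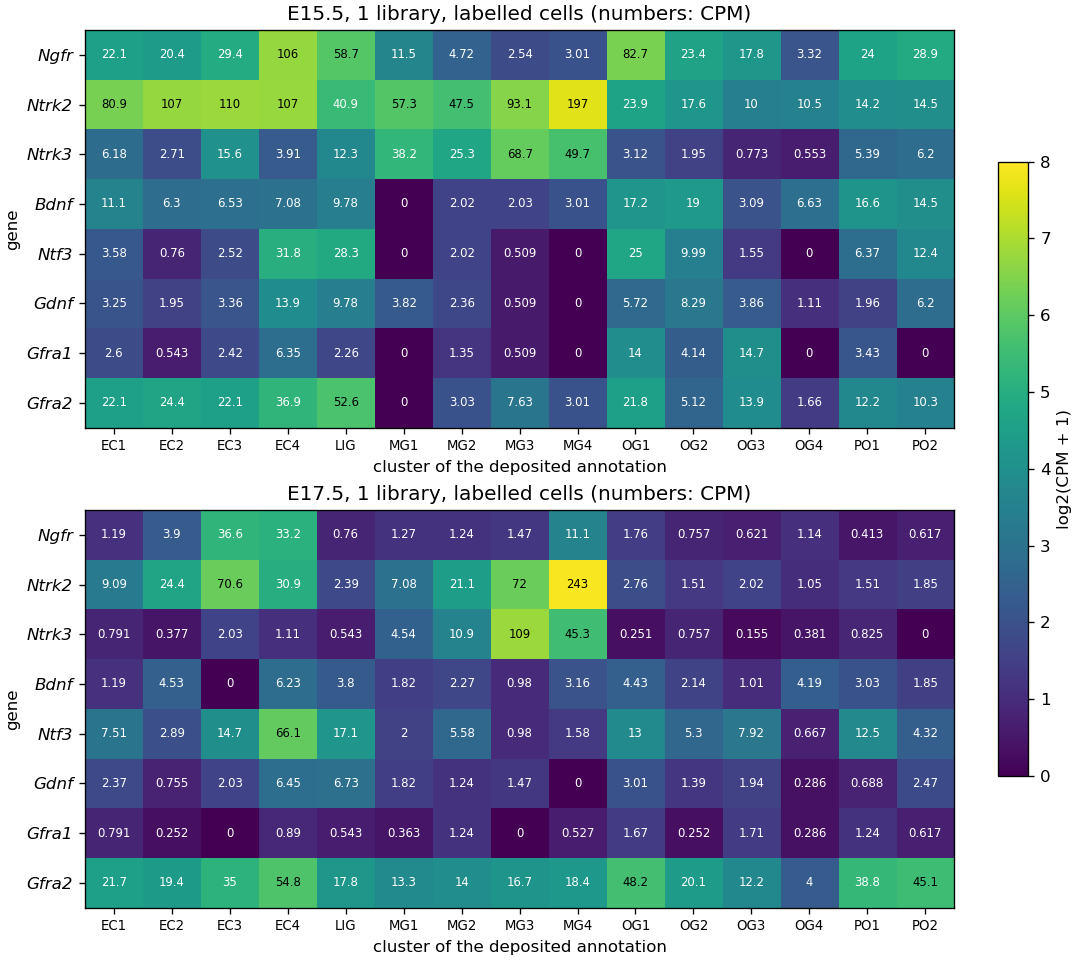
Level of each of the 8 genes in the 15 labelled clusters at E15.5 (top, 1 library) and E17.5 (bottom, 3 batches joined). Rows are genes, columns are clusters, the colour gives log2(CPM + 1) and the printed numbers are CPM. At E17.5 *Ntrk3* is apart from the other clusters in MG3 (109 CPM) and *Ntf3* in EC4 (66.1 CPM).

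*Ngfr* (ENSMUSG00000000120, GRCm38 chromosome 11, 95568818 to 95587735, minus strand) was broadly detected at E15.5. Its level was 106 CPM in EC4 (96.5 to 117), 82.7 in OG1 (70.3 to 96.6), 58.7 in LIG (51.4 to 66.7) and 29.4 in EC3 (26.2 to 32.8). The other clusters ranged from 2.54 CPM in MG3 to 28.9 in PO2. Among the 14 pairs of neighbours in this order, intervals did not overlap for OG1 and LIG or for LIG and EC3. At E17.5 *Ngfr* stood in fewer clusters: 36.6 CPM in EC3 (28.6 to 46.0), 33.2 in EC4 (28.1 to 38.9) and 11.1 in MG4 (6.84 to 16.9), with at most 3.90 elsewhere. EC3 and EC4 overlapped, while EC4 and MG4, and MG4 and EC2 (3.90 CPM), did not. The fold of EC4 over the rest of the labelled cells was 4.02 (3.59 to 4.49) in the earlier library and 14.5 (11.7 to 18.1) in the later one.

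Over all labelled cells *Ngfr* had a ratio between stages of 0.114 (0.101 to 0.128), with 33.1 CPM at E15.5 and 3.78 at E17.5. The ratio was below 1 in 13 of 15 clusters, with the interval below 1 in 11 and above 1 in 0. It was 0.0130 in LIG (0.00515 to 0.0271), 0.0212 in OG1 (0.0128 to 0.0336) and 0.312 in EC4 (0.257 to 0.377), whereas EC3 had 1.24, with an interval that included 1. The E17.5 values of *Ngfr* depended on barcode suffix 1, where EC4 had 66.7 CPM against 21.5 and 18.8 in suffixes 2 and 3, and EC3 had 70.6 against 36.7 and 19.2. Without suffix 1 the ratio between stages was 0.0858, and with suffix 1 alone it was 0.254. With each cluster weighted equally it was 0.219, and that of *Gfra1* was 0.198. In MG4 the fold of *Ngfr* over the rest of the labelled cells was 0.0897 at E15.5, on 2 UMIs, and 3.05 at E17.5, on 21 UMIs. The ratio of its levels in MG4 between stages was 3.67 (0.898 to 32.3), with an interval that included 1. In MG4 at E17.5 suffixes 2 and 3 had 11.8 and 11.3 CPM, and the 7 cells of suffix 1 had 0 UMIs. These MG4 cells also had 59 UMIs of 5 glia markers, of which 58 were *Fabp7* and 0 were *Sox10*, and a link between the genes was not tested. The authors list *Ngfr* with *Lama1* and *Rdh10* as pia mater markers and report no cluster in which they were enriched together. Here *Lama1* was highest in MG4 in both libraries but on 4 and 2 UMIs (6.02 and 1.05 CPM). *Rdh10* had 4 UMIs there in each library and was highest in OG1 and then in EC1.

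*Ntrk2* (ENSMUSG00000055254, chromosome 13, 58806569 to 59133970, plus strand) was highest in MG4, the cluster with the arachnoid markers, at both stages. It had 197 CPM (165 to 234) there in the earlier library and 243 (221 to 266) in the later one. At E15.5 EC3, EC4 and EC2 followed with 110, 107 and 107 CPM, MG3 with 93.1 and EC1 with 80.9, and the osteogenic and proliferating clusters had 10.0 to 23.9. Neighbours in this order overlapped except MG4 and EC3, and LIG (40.9 CPM) and OG1 (23.9). At E17.5 MG3 had 72.0 CPM, EC3 70.6 and EC4 30.9, LIG 2.39, and the osteogenic and proliferating clusters 1.05 to 2.76. The fold of MG4 over the other labelled cells was 2.67 (2.23 to 3.18), then 24.4 (21.8 to 27.4). The other labelled cells together had 73.8 and 9.94 CPM. The ratio between stages was 1.23 in MG4 (1.01 to 1.51), below 1 with its interval in the other 14 clusters, and 0.195 over all labelled cells (0.183 to 0.207). With each cluster weighted equally this ratio was 0.527, so that *Ntrk2* was then not 2-fold lower. In EC3, *Ntrk2* differed between suffixes at E17.5, with 153, 36.7 and 76.8 CPM in suffixes 1, 2 and 3. MG4 had 155 CPM in the 7 cells of suffix 1, and 235 and 259 in the others. Its fold over the other labelled cells was 7.95 with suffix 1 alone and 30.9 without it.

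*Ntrk3* (ENSMUSG00000059146, chromosome 7, 78175959 to 78738012, minus strand) was highest in MG3, where *Crabp2* and *Fxyd5* also were. Its level there was 68.7 CPM (57.6 to 81.3) in the earlier library and 109 (95.4 to 125) in the later one, with 97.0, 105 and 119 in suffixes 1, 2 and 3. MG4 followed with 49.7 CPM (34.2 to 69.7) and 45.3 (36.2 to 55.9), though in suffix 1 its 7 cells had 129 (61.9 to 237), more than MG3 there. At E15.5 MG1 had 38.2 CPM, MG2 25.3 and EC3 15.6, and the remaining clusters 0.553 to 12.3. Only the intervals of MG2 and EC3 were apart among neighbours at E15.5, so MG3 was not separable from MG4 there. At E17.5 MG3 and MG4, MG4 and MG2 (10.9 CPM), and MG2 and MG1 (4.54 CPM) were apart, and the 11 clusters outside the meninges had at most 2.03. The fold of MG3 over the other labelled cells was 7.55 (6.18 to 9.19) and 48.5 (39.9 to 58.9). Between stages *Ntrk3* had a ratio of 1.59 in MG3 (1.28 to 1.99), whereas it was below 1 in 14 clusters, with the interval below 1 in 10. Over all labelled cells the ratio was 0.401 (0.353 to 0.456), 0.737 with each cluster weighted equally and 0.508 with suffix 1 alone. These 3′ counts do not separate the kinase forms of *Ntrk2* and *Ntrk3* from the truncated ones.

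**Figure D2:**
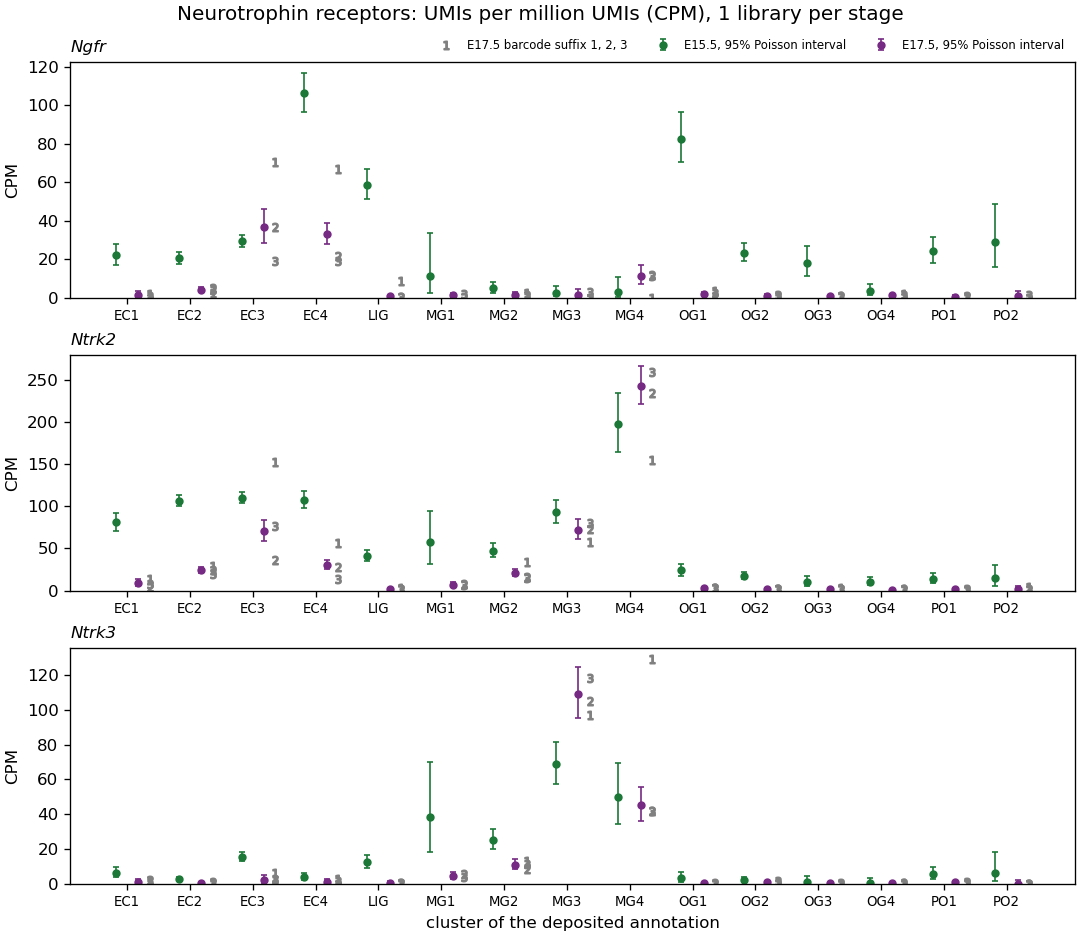
Levels in CPM of *Ngfr*, *Ntrk2* and *Ntrk3* in the 15 labelled clusters, with 1 library at E15.5 and 3 batches joined at E17.5. Points are levels at E15.5 and E17.5 with exact Poisson 95% intervals, and the digits 1, 2 and 3 are the levels in the E17.5 barcode suffixes. *Ntrk2* in MG4 had 197 and 243 CPM, and *Ngfr* in EC4 had 66.7 CPM in suffix 1 against 21.5 and 18.8 in the others.

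*Ntf3* (ENSMUSG00000049107, chromosome 6, 126101412 to 126166910, minus strand), the preferred ligand of TrkC, was highest in EC4 at both stages. At E15.5 EC4 had 31.8 CPM (26.5 to 37.7), LIG 28.3 (23.3 to 34.1) and OG1 25.0 (18.4 to 33.1), and no pair of neighbours in the order was apart. At E17.5 EC4 had 66.1 CPM (58.8 to 74.1), apart from LIG with 17.1 (14.5 to 19.9), and suffixes 1, 2 and 3 had 62.7, 70.7 and 63.3 CPM there. EC3 (14.7), OG1 (13.0) and PO1 (12.5) came next, and PO1 was apart from OG3 (7.92). The clusters with most *Ntrk3* had little *Ntf3*: 0.509 and 0.980 CPM in MG3, and 0 UMIs and 1.58 CPM in MG4, where 0 UMIs allow up to 4.51 CPM by the limit of 3 counts. *Ntf3* and *Gfra2* were the 2 genes of the 8 with ratios between stages above 1. For *Ntf3* the ratio was 1.26 over all labelled cells (1.12 to 1.42), with the interval above 1 in 6 clusters and below 1 in 3. It was 5.85 in EC3 (3.34 to 10.3), 2.08 in EC4 (1.69 to 2.58), 0.602 in LIG (0.470 to 0.773) and 0.519 in OG1 (0.374 to 0.734). In suffix 1 LIG and OG1 had 35.4 and 25.3 CPM, which is not below E15.5, against 17.7 and 12.8 in suffix 2 and 15.2 and 10.5 in suffix 3.

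*Bdnf* (ENSMUSG00000048482, chromosome 2, 109674700 to 109727007, plus strand) was highest in osteogenic and proliferating clusters at E15.5. OG2 had 19.0 CPM, OG1 17.2, PO1 16.6 and PO2 14.5, followed by EC1 with 11.1, LIG with 9.78 and EC4 with 7.08. OG4 and OG3 had 6.63 and 3.09. At E17.5 the highest level was 6.23 CPM in EC4 (4.14 to 9.01), and EC3 had 0 UMIs, which allow up to 1.52 CPM. No pair of neighbours was apart at either stage. MG4, the cluster with most *Ntrk2*, had 3.01 and 3.16 CPM of *Bdnf*, from 2 and 6 UMIs. Over the other labelled cells OG1 had 2.13-fold *Bdnf* (1.44 to 3.04) and later 1.55-fold, which was 2.42 with suffix 1 alone and 0.885 with suffix 3 alone. The ratio between stages was 0.362 (0.310 to 0.423), and 0.113 in OG2 (0.0625 to 0.192).

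*Gdnf* (ENSMUSG00000022144, chromosome 15, 7810846 to 7837575, plus strand) had few UMIs, 228 and 210 in all labelled cells. Its levels were highest in EC4 and LIG, at 13.9 CPM (10.5 to 18.0) and 9.78 (6.95 to 13.4) at E15.5, and 6.45 (4.32 to 9.27) and 6.73 (5.16 to 8.63) at E17.5. The pair EC4 and OG1 (3.01 CPM) at E17.5 was the only pair of neighbours apart. MG4 had 0 UMIs in both libraries, which allow up to 4.51 and 1.58 CPM. The ratio between stages was 0.484 (0.399 to 0.586). It was 0.301 with suffix 1 alone and 0.521 without suffix 1, so that *Gdnf* was then not 2-fold lower. With suffix 1 alone *Gdnf* was 7.98-fold in EC4 at E17.5, and with suffix 3 alone it was 1.58-fold there. The fold in LIG was 2.31 (1.59 to 3.27) and then 3.79 (2.77 to 5.14).

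*Gfra1* (ENSMUSG00000025089, chromosome 19, 58235604 to 58455909, minus strand) was the sparsest of the 8 genes, with 149 and 79 UMIs in labelled cells. At E15.5 OG3 had 14.7 CPM (8.84 to 22.9) and OG1 14.0 (9.25 to 20.4), followed by EC4 with 6.35. At E17.5 OG3 had 1.71 CPM (1.07 to 2.59) and OG1 1.67 (1.02 to 2.58), from 22 and 20 UMIs. No pair of neighbours was apart at either stage, and OG1 and OG3 cannot be ranked. The ratio between stages was 0.278 over all labelled cells (0.209 to 0.368), 0.116 in OG3 (0.0601 to 0.227) and 0.119 in OG1 (0.0634 to 0.221). The fold in OG3 at E17.5, 2.39 (1.39 to 3.97), differed between suffixes, with 8.63, 2.24 and 0.937 in suffixes 1, 2 and 3 alone and 1.46 without suffix 1. In OG1 the fold was 5.37 (3.40 to 8.20) and then 2.29 (1.30 to 3.85), with 0 UMIs in the 101 cells of suffix 1, which allow up to 2.53 CPM, and 1.71 and 2.00 CPM in suffixes 2 and 3.

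*Gfra2* (ENSMUSG00000022103, chromosome 14, 70890120 to 70979838, plus strand) changed its leading cluster between stages. LIG was highest at E15.5 with 52.6 CPM (45.8 to 60.3), apart from EC4 with 36.9 (31.2 to 43.3), which was apart from EC2 with 24.4. At E17.5 EC4 had 54.8 CPM (48.1 to 62.0), OG1 48.2 (44.3 to 52.3), PO2 45.1 and PO1 38.8, and LIG had 17.8. The intervals of EC4 and OG1 overlapped. EC4 was highest in suffixes 1 and 2, with 65.9 and 60.2 CPM. In suffix 3 EC4 had 38.3 CPM, a fold of 1.70, below PO2 with 53.6, OG1 with 49.0 and PO1 with 41.0. The lowest, OG4 with 4.00, was apart from OG3 with 12.2. Ratios between stages went both ways, with the interval above 1 in 9 clusters and below 1 in 2. They were 0.338 in LIG (0.274 to 0.417), 2.21 in OG1 (1.61 to 3.09) and 3.17 in PO1. In EC4 *Gfra2* was 1.87-fold (1.56 to 2.22) and then 2.48-fold (2.17 to 2.84) the level of the rest, under the limit in the earlier library. Over all labelled cells the ratio was 1.11 (1.03 to 1.20), and 1.60 with each cluster weighted equally.

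**Figure D3:**
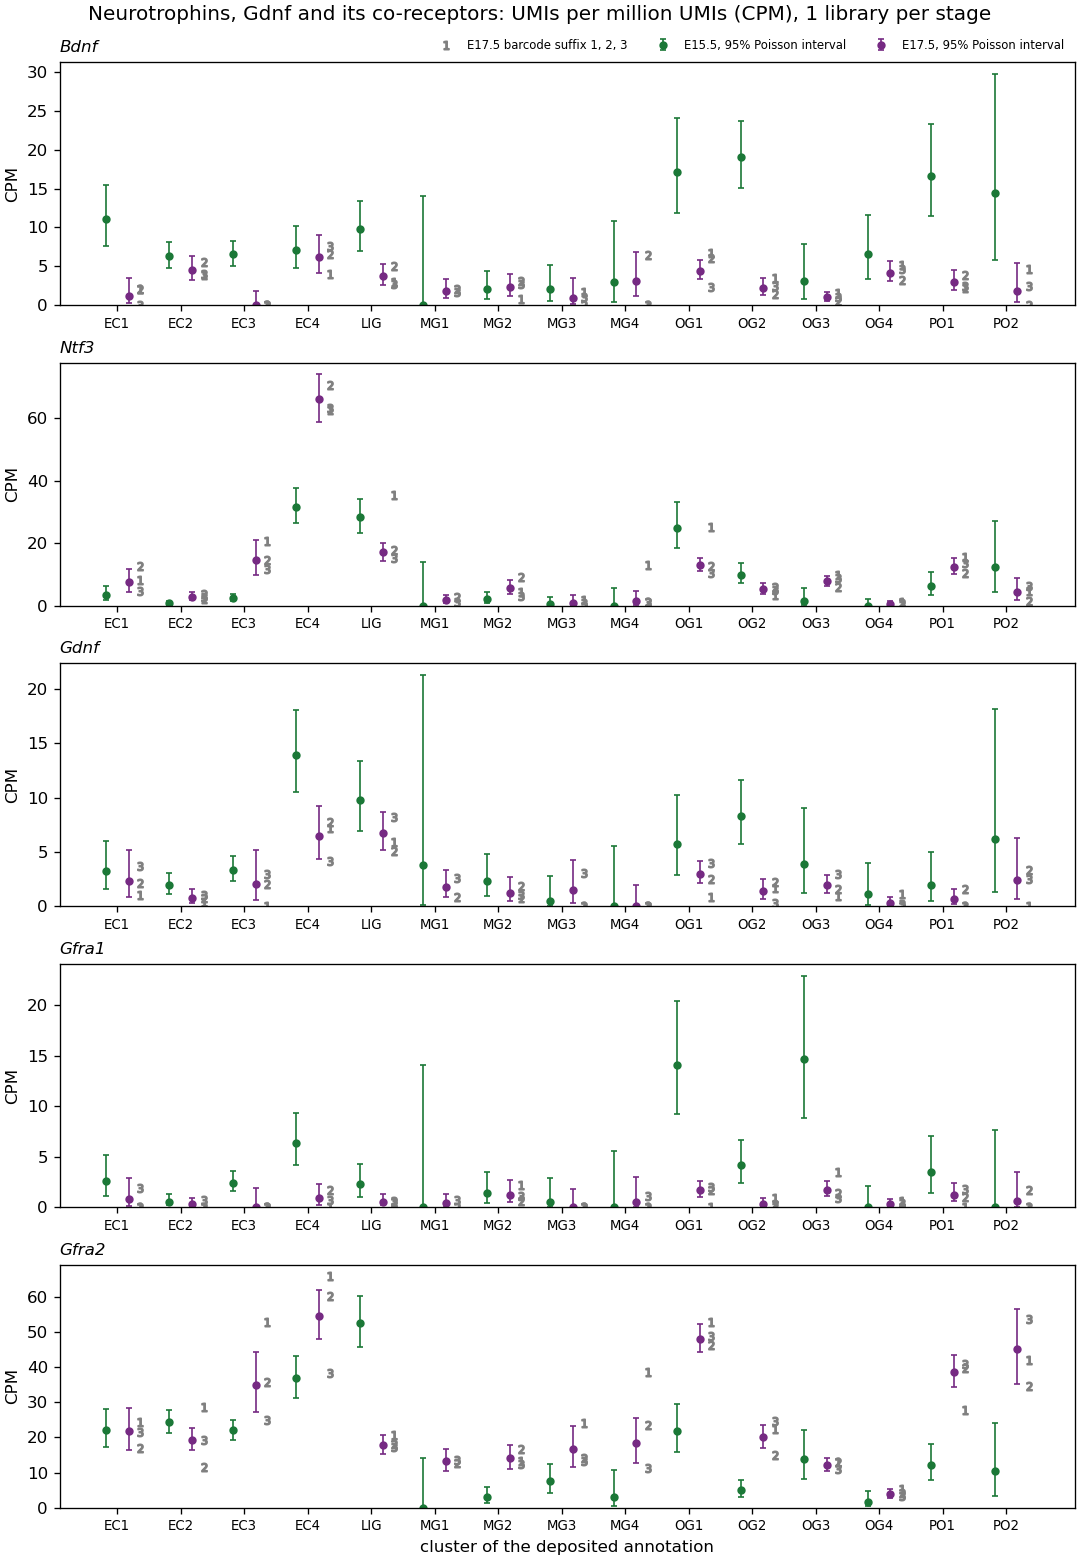
Levels in CPM of *Bdnf*, *Ntf3*, *Gdnf*, *Gfra1* and *Gfra2* in the 15 labelled clusters, with 1 library at E15.5 and 3 batches joined at E17.5. Points are levels at E15.5 and E17.5 with exact Poisson 95% intervals, and the digits 1, 2 and 3 are the levels in the E17.5 barcode suffixes. *Ntf3* in EC4 had 31.8 and 66.1 CPM, and *Gfra2* in LIG had 52.6 and 17.8 CPM.

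Depth differed between the libraries, so the share of cells with a UMI was also taken after cells were thinned to 3000 UMIs. The share of EC4 cells with *Ngfr* was then 27.6% in the earlier library and 9.46% in the later one, and 53.1% and 26.2% before thinning. In OG1 the thinned shares of *Ngfr* were 19.7% and 0.495%. Myeloid cells, which served as the level that free RNA could give, had *Ngfr* in 0.668% and 0.253%, with median depths before thinning of 9413 and 10633 UMIs against 7955 and 10667 in EC4. The OG1 share at E17.5 was thus near that of the myeloid cells. Other classes without a label had more *Ngfr*, with 8.57% and 1.65% of endothelial cells (3 and 2 cells) and 2.08% and 1.23% of chondrocytes, and chondrocytes had *Ntrk2* in 6.49% and 3.21%. The myeloid share is thus the lowest of these 3 classes for both genes, and whether the others make the RNA was not tested. *Ntrk2* was found in 43.5% and 43.1% of thinned MG4 cells (myeloid 1.78% and 0.632%), *Ntrk3* in 18.1% and 28.5% of MG3 cells (0.445% and 0.126%) and *Ntf3* in 8.19% and 15.1% of EC4 cells (0.223% and 0.632%). *Gfra2* was found in 10.8% and 14.6% of thinned EC4 cells and in 14.3% and 5.48% of LIG cells (myeloid 0.891% and 5.06%). At E17.5 *Gfra2* was at 18.4 CPM in myeloid cells but at 3.12 (1.01 to 7.27) in endothelial cells and 4.00 in OG4, so the myeloid share is not read as a level of free RNA for this gene. *Gfra1* was found in 0 of 927 thinned OG3 cells at E17.5, so its level there was near the limit of this depth.

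Receptors were also counted in the same cells. In EC3 at E15.5, *Ntrk2* was found in 71.4% of cells with *Ngfr* (64.7 to 77.5) and in 53.0% of cells without it (49.8 to 56.1), at median depths of 8456 and 8659.5 UMIs. In EC4 the shares were 53.8% and 44.5%, with intervals that overlapped. At E17.5 they were 51.1% and 32.0% in EC3 and 29.9% and 17.6% in EC4, where intervals also overlapped. Both genes were higher in suffix 1 than in suffixes 2 and 3 in these clusters (*Ntrk2* in EC4 56.3, 27.6 and 13.2 CPM). Within suffix 1 the EC4 shares were 28.9% and 29.6%, within suffix 2 they were 11 of 30 cells and 17 of 110, and within suffix 3 they were 22.7% and 10.9%. The EC3 shares were 91.7% and 52.2%, 33.3% and 21.7%, and 45.5% and 36.4%. The intervals overlapped in each suffix. *Ntrk3* was found in 44.9% of MG3 cells with *Ntrk2* and in 48.6% without it at E15.5, and in 70.3% and 69.3% at E17.5.

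Levels of the 8 genes across the 30 points that the 15 clusters give in both libraries were compared with those of 9862 genes with at least 200 UMIs in each library. Points share cells, library and depth, so Pearson's r is a description. *Ntrk2* was most like *Pear1* (0.942), *Fuca2* (0.911) and *Bvht* (0.910), and *Ntrk3* like *Gstm5* (0.923) and *Bace2* (0.914). *Ngfr* was most like *Brinp1* (0.838), *Ramp3* (0.817) and *Slitrk6* (0.792). The patterns of *Ntf3* and *Gdnf* were close to each other (0.794), and *Cxcl14* led the genes like them, with 0.812 for *Ntf3* and 0.864 for *Gdnf*. The others were *Nhs* for *Ntf3* (0.799) and *Trim2* for *Gdnf* (0.781). *Bdnf* was most like *Meis1* (0.790), *Cops8* (0.776) and *Hspa4l* (0.766), and *Gfra2* like *Frg1* (0.817), *Gm8773* (0.812) and *Ctsc* (0.811). *Gfra1* had under 200 UMIs and was not compared. *Ntrk2* and *Ntrk3* had an r of 0.704, and *Ngfr* and *Ntrk3* of -0.09.

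Of 31 other genes of these pathways, 23 had at least 50 UMIs in each library, of which 8 were enriched in a cluster at both stages, against 18.5% of all genes compared. *Ret*, the signalling partner of the Gfra receptors, was enriched in MG3 (8.65 and 8.33 CPM), on 17 UMIs there in each library. In MG3 *Gfra1* had at most 1 UMI in each library, whereas *Gfra2* had 15 and 34 UMIs (7.63 and 16.7 CPM). *Ncam1* (198 and 246 CPM) and *Pcsk5* (70.8 and 82.4) were enriched in MG2, *Sort1* (25.4 and 14.3) and *Pcsk6* (268 and 98.9) in OG4, and *Sorcs3* (23.8 and 10.7), *Rtn4r* (7.71 and 10.4) and *Plat* (111 and 185) in EC2. At E15.5 *Ret* was higher in MG4 (12.0 CPM), *Pcsk5* in MG3 (81.9) and *Ncam1* in PO2 (200) than in these clusters, as was *Sorcs3* in EC3 (12.2) at E17.5. Between stages, 4 of the 23 genes were at least 2-fold lower at E17.5 (*Sorcs3*, *Lingo1*, *Nrtn* and *Plat*, against 9.88% of all genes) and *Tnfrsf19* was higher (3.80), with a median ratio of 0.954.

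Cells without a label that passed the limits numbered 2875 in the earlier library and 1937 in the later one, and were put in classes by marker lists. Cells with glia and Schwann cell markers numbered 10 and 32, of which 4 at E15.5 were at the minimum of 3 markers. *Ngfr* reached 335 CPM (219 to 491) in the 10 cells and 403 (338 to 477) in the 32, and was found in 10 and 31 of them. These are above the highest labelled cluster of each library. In all, 5 of the 8 genes were above each labelled cluster in a class of at least 10 cells in either library, against 33.5% of the 12150 genes. Of 5 glia markers EC4 at E15.5 had 6 UMIs, with 2 genes found, 3 of them *Erbb3*, and *Sox10* and *Foxd3* at 0. OG1 at E15.5 had 11 glia UMIs, 7 of them *Erbb3*. Of 6 neuron markers OG1 had 377 UMIs at E15.5 (196 CPM), of which 359 were *Stmn2*, and 218 at E17.5 (18.2 CPM), and EC4 had 368 and 124. *Stmn2* was higher at E15.5 in OG2 (668 CPM), PO2 (399) and PO1 (384), where *Ngfr* was lower, than in OG1 (187). Whether these move with *Ngfr* within a cluster was not tested. In the 749 E15.5 barcodes with fewer than 1000 UMIs, which served as a view of free RNA, *Ngfr* was at 1.91 CPM (0.0483 to 10.6, 1 UMI) and *Ntrk2* at 19.1 (9.15 to 35.1). The latter is close to the levels of *Ntrk2* in the osteogenic clusters at E15.5. *Ntrk3* and *Gfra2* were at 7.63 CPM (2.08 to 19.5), on 4 UMIs each, and *Ntrk3* was lower than this in 9 of the 11 clusters outside the meninges. *Bdnf* was at 3.81 CPM, on 2 UMIs, above its levels in MG1 to MG4 and OG3. Low levels of these genes at E15.5 were thus not separated from those in these barcodes. Whether the barcodes hold free RNA or cells of low depth was not tested, and at E17.5 there were 0 of them. Myeloid cells at E15.5 were lower than the barcodes, with 9.77 CPM of *Ntrk2*, 2.03 of *Ntrk3*, 3.66 of *Gfra2* and 1.22 of *Bdnf*.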

How the data were processed

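The authors deposited 1 count matrix per stage, with the UMIs of each gene and barcode, not normalized, and a table with the cluster of each labelled cell. The E15.5 matrix header names Cell Ranger 3.1.0, and its counts are below those in the authors' table in all 5335 labelled cells (median 8510 against 11513). At E17.5 all 6830 are equal. The authors' limits (at least 1000 UMIs and 1000 genes, at most 7.5% mitochondrial and 3% Hbb and Hba UMIs) chose unlabelled cells, while 93 labelled E15.5 cells outside them were kept. The 8 genes and the lists were chosen with earlier results of these data known. A count of 0 allows a level of up to 3 counts. Levels have exact Poisson, ratios conditional binomial and shares Clopper-Pearson intervals. Pathway genes are named when at least 2-fold in the same cluster in both libraries with at least 50 UMIs in each, and *Ret* in any case. Others named for their stage ratio were chosen after their values were seen, as were *Gfra3* and *Nrtn* in unlabelled cells. Likeness names the 3 genes with the highest r of log2(CPM + 1), each library centred on its mean, of which 2 are used here for *Ntrk3*. Unlabelled cells entered 1 of 12 classes with UMIs of at least 3 genes of its list and a larger share of it than of any other. Cells with high Scrublet scores were kept and left out in 1 alternative (6% of cells). Positions are from GENCODE M21. Tools were matplotlib 3.10.9, anndata 0.12.19, scanpy 1.11.5, pandas 2.3.3, scipy 1.17.1 and numpy 2.4.6 in Python 3.11.15.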

Additional observations from a re-analysis of the deposited data

Results flagged for a closer look

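*Ngfr* in OG1 lay on opposite sides of the other labelled cells at the 2 stages. It was 2.66-fold their level at E15.5 (2.24 to 3.13) and 0.431-fold at E17.5, where the barcode suffixes 1, 2 and 3 had 0.382, 0.273 and 0.826. The difference between stages was not tested, and stage and dissociation cannot be told apart.

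Cells without a deposited label, which the comparisons of the clusters do not use, had higher levels of 5 of the 8 genes than any labelled cluster of their library, with intervals that did not overlap, as did 33.5% of the 12150 genes compared. In glia and Schwann cells these were *Ngfr* (335 CPM at E15.5 and 403 at E17.5), *Gfra1* (193 and 26.8 CPM) and, at E17.5, *Gfra2* (158 CPM, 118 to 207). The highest labelled clusters had 14.7 and 1.71 CPM of *Gfra1*. The glia values rest on 10 cells at E15.5 and on 32 at E17.5 (13, 9 and 10 in suffixes 1, 2 and 3). In 91 cells with photoreceptor and pineal markers, all from suffixes 2 and 3 at E17.5, *Ntf3* was at 104 CPM (88.0 to 121) and *Gfra1* at 58.0 (46.5 to 71.5). In 196 pericytes at E17.5 *Bdnf* was at 15.3 CPM and *Gfra1* at 12.7 (8.81 to 17.8). In 118 pericytes at E15.5 *Bdnf* was at 30.9 CPM (22.4 to 41.4) and *Gfra1* had 25 UMIs (11.3 to 25.9 CPM), also at levels higher than in any labelled cluster, though intervals overlapped.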

How the results depend on the processing

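Each gene was followed in the cluster whose smaller fold of the 2 stages was largest, which is not the highest cluster at both stages for *Bdnf* (OG1), *Gfra2*, *Gdnf* and *Ngfr* (EC4). Of 128 such folds under other settings, 103 stayed within their counting interval, 22 moved and 3 turned below 1: *Gfra1* in OG3 at E17.5 was 0 after thinning to 3000 UMIs and 0.937 with suffix 3 alone, and *Bdnf* in OG1 at E17.5 was 0.885 with suffix 3 alone. The cause was not tested, and *Gfra1* had 22 UMIs in OG3. Of 88 ratios between stages, 56 stayed and 32 moved. The count of genes at least 2-fold apart between stages was 3 for mean UMIs per cell without normalization (*Ngfr*, *Ntrk2* and *Gfra1*), where the median ratio of all genes was 1.49 (log2 0.58). Relative to that median the 8 ratios were 0.114 for *Ngfr*, 0.361 for *Bdnf*, 1.26 for *Ntf3*, 0.194 for *Ntrk2*, 0.400 for *Ntrk3*, 0.482 for *Gdnf*, 0.277 for *Gfra1* and 1.11 for *Gfra2*. Of all genes 4.3% were lower and 19.8% higher without normalization. The count was 4 with clusters weighted equally (6.95% lower, 3.82% higher) and 5 with suffix 1 alone (8.96%, 5.12%), suffix 3 alone (10.2%, 5.0%) or without suffix 1 (10.4%, 4.99%). The count of genes enriched in a cluster was 5 with suffix 2 or 3 alone (17.2% and 17.4% of the 12150 genes), 8 at a limit of 1.5-fold (34.8%) and 6 under the other settings (16.7% with suffix 1 alone and 18.0% without it). After thinning *Gfra2* met the rule and *Gdnf* did not, though its folds in EC4 were 4.63 and 3.13. For *Gfra1* the cluster was OG1 in place of OG3 under 4 settings (mean CPM of cells, thinning, high Scrublet scores left out, and without suffix 1). Leaving out suffix 1 was chosen after seeing the data. Without a replicate at E15.5, depth limits *Gdnf* and *Gfra1* most, with 228 and 149 UMIs at that stage.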

Other observations

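Glia and Schwann cells without a label also had 850 CPM (658 to 1082) of *Gfra3* in the E15.5 library and 623 (542 to 714) in the E17.5 one. The 91 cells with photoreceptor and pineal markers had 107 CPM of *Nrtn* (91.0 to 125). Pericytes had 41.4 and 50.2 CPM of *Ngfr* and 26.6 and 52.4 of *Ntrk2* at E15.5 and E17.5.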
